A study of Mus musculus with 32 samples.

Results

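The peroxiredoxins, the superoxide dismutases and catalase are among the enzymes that remove superoxide and peroxides from the cell. Their 10 genes, Prdx1 to Prdx6, Sod1 to Sod3 and Cat, were found by symbol among the 54532 genes of the expression table, each in a single row. They were followed in liver, intrascapular brown fat (BAT), epididymal white fat (eWAT, a visceral depot) and inguinal white fat (iWAT, a subcutaneous depot) of wild-type C57/Bl6j mice. All mice ate a diet with 60% of fat for 12 weeks. They then received auranofin, a gold-containing anti-rheumatic drug known to inhibit thioredoxin reductase, dosed at 1 mg/kg, or vehicle, 3 times per week for 4 weeks. There were 4 auranofin and 4 vehicle libraries per tissue, 32 in all, and no group on ordinary chow was analysed here. The labels do not say that the libraries of a group came from separate animals, so the p-values measure the spread between these libraries only.

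Superoxide dismutases turn superoxide into hydrogen peroxide, Sod1 mainly in the cytosol, Sod2 in the mitochondrial matrix and Sod3 outside the cell. Catalase breaks down hydrogen peroxide in peroxisomes, organelles that make it while oxidising fatty acids. Peroxiredoxins reduce hydrogen peroxide with a reactive cysteine: Prdx1 and Prdx2 act mainly in the cytosol, Prdx3 in mitochondria, Prdx4 in the endoplasmic reticulum, Prdx5 in mitochondria, peroxisomes and cytosol, and Prdx6 in the cytosol. Most of them are recharged by thioredoxin, which thioredoxin reductase in turn keeps reduced, whereas Prdx6 draws on glutathione. The comparisons ask how the transcripts of these enzymes stood in each tissue and whether they differed with the drug.

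Libraries held 13606756 to 19205640 reads on genes, and between 115 (Prdx4) and 57572 (Cat) of them fell on one of the 10 genes in a library. Levels are the deposited FPKM, scaled to gene length and to a size per library that differs from its reads on genes. That size was 0.694 to 0.765 times the reads on genes in liver, 0.854 to 1.006 times in BAT, 1.14 to 1.41 times in eWAT and 1.02 to 1.33 times in iWAT, so levels of different tissues rest on this scaling. Each log2 change is a difference on the log2(FPKM + 1) scale. The libraries carried the marker genes of their tissues: Alb, liver albumin, lay between 39644 and 57473 FPKM in liver, Ucp1, the uncoupling protein of brown fat, between 1697 and 4145 FPKM in BAT, and Adipoq, the fat cell hormone adiponectin, between 596 and 3251 FPKM in the white depots. Alb also reached 286 FPKM in eWAT and 217 FPKM in iWAT. A lower level in such bulk tissue can come from fewer cells of a type or from less RNA per cell, which cannot be told apart here.

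Among vehicle libraries, the 10 genes together summed to 2908 ± 76.3 FPKM in liver, 1277 ± 107 in BAT, 941 ± 83.4 in eWAT and 1487 ± 90.5 in iWAT (SD, n = 4 each). On the TPM scale, where every library has the same total, the sums were 4870 ± 243 in liver, 2805 ± 295 in BAT, 3652 ± 512 in eWAT and 4232 ± 154 in iWAT, so that BAT and not eWAT was lowest. On the deposited gene lengths, Cat alone held on average 54.1% of the sum in liver and between 23.2% and 23.3% in each fat depot. Single vehicle libraries ran from 20.7% to 25.0% in BAT, 13.9% to 29.6% in eWAT and 19.6% to 25.4% in iWAT. Within the superoxide dismutases, Sod1 held 88.6% in liver and Sod3 67.1% in iWAT, while BAT was more even, with 42.2% for Sod1, 28.9% for Sod2 and 28.9% for Sod3. In eWAT, Sod3 held a mean of 56.6%, from 37.8% to 66.2% by library. Prdx1 led the peroxiredoxins in liver with 44.3% of their sum, Prdx3 in BAT with 37.1% and Prdx5 in iWAT with 33.4%. In eWAT, Prdx1 held a mean of 46.5%, from 28.3% to 68.3% by library. These shares turn with the gene length used. Rescaled to the principal transcript of each gene, Sod1 held 40.2% of the sum of all 10 in liver and Cat 30.4%. Of the superoxide dismutases, Sod1 then led in every tissue, with 97.0% in liver, 76.8% in BAT, 72.7% in eWAT and 67.7% in iWAT, and Prdx5 (29.3%) exceeded Prdx3 (26.3%) among the peroxiredoxins of BAT.

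**Figure D1:**
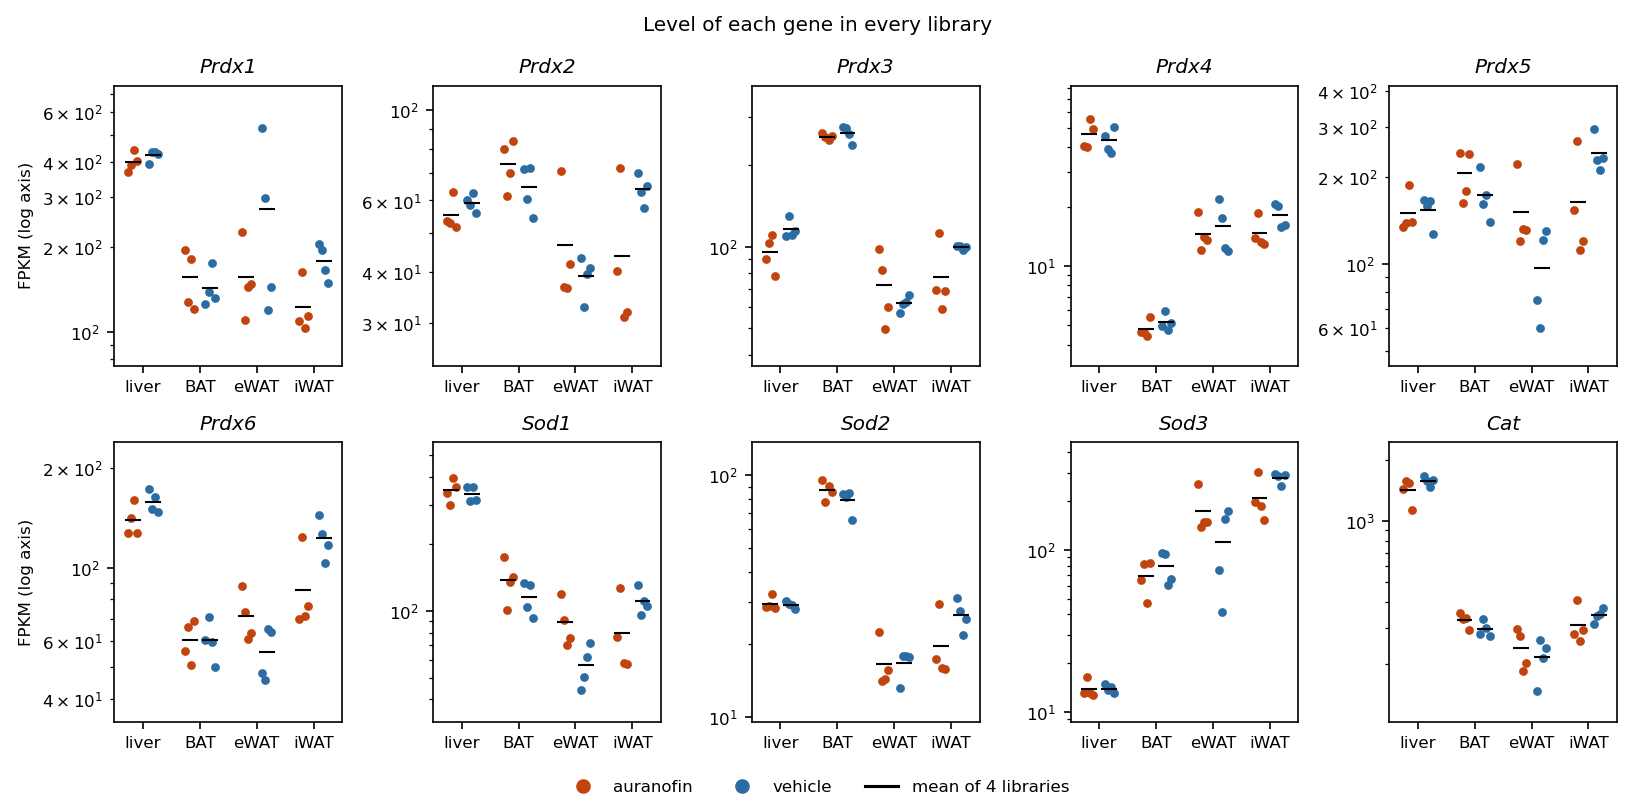
FPKM (log axis) of each gene in every library of liver, BAT, eWAT and iWAT, auranofin beside vehicle; points are single libraries and bars are means of 4 libraries. Cat and Sod1 stood highest in liver, Prdx3 and Sod2 in BAT, and Sod3 in iWAT, whereas Prdx1 in eWAT ranged from 119 to 528 FPKM among vehicle libraries alone.

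Cat, the peroxisomal catalase, stood far higher in liver than in any fat depot, with a mean 4.56 times that of the next tissue. Vehicle livers had 1661, 1580.2, 1467 and 1588 FPKM, BAT 278, 331, 297 and 274, eWAT 146, 262, 212 and 237, and iWAT 314, 343, 349 and 374. The liver values lay far above every fat value, and the fat depots stood close together. The log2 change was 2.41 (SE 0.15, adjusted p = 8.13e-10) for liver against BAT, 2.90 (SE 0.15, adjusted p = 7.33e-11) against eWAT and 2.19 (SE 0.15, adjusted p = 2.60e-09) against iWAT. The next steps were smaller, with a log2 change of -0.71 (SE 0.15, adjusted p = 0.00148) for eWAT against iWAT. That for BAT against eWAT was 0.49 (SE 0.15, adjusted p = 0.0133) but -0.33 on the TPM scale and -0.14 after quantile normalisation. On the deposited scale BAT and iWAT were not separated (-0.23, 95% interval -0.55 to 0.10).

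Sod1, the cytosolic copper and zinc enzyme, was also a liver gene. It had 362, 311, 359.9 and 314 FPKM in liver, 134, 104, 131 and 92.6 in BAT, 44.2, 50.4, 61.8 and 71.8 in eWAT, and 130.3, 95.6, 111 and 106 in iWAT. Liver exceeded BAT by 1.55 (SE 0.16), eWAT by 2.56 (SE 0.16) and iWAT by 1.60 (SE 0.16) on the log2 scale, the largest adjusted p being 3.68e-07, and no liver library overlapped with a fat library. BAT and iWAT did not differ beyond their spread (log2 change 0.05, 95% interval -0.29 to 0.39), and eWAT was lower than iWAT (-0.96, SE 0.16, adjusted p = 0.000225). Ccs, the chaperone that loads copper into Sod1, averaged 218 ± 23.1 FPKM in liver, 37.8 ± 9.76 in BAT, 16.9 ± 8.41 in eWAT and 26.5 ± 4.32 in iWAT (SD, n = 4 each), which is the same order of tissues as for Sod1.

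Sod3, the secreted enzyme that binds to the cell surface and matrix, ran the other way. Its vehicle levels were 14.8, 13.6, 14.2 and 13.1 FPKM in liver, 95.2, 94.6, 60.9 and 66.0 in BAT, 75.1, 41.5, 156 and 173 in eWAT, and 293, 286, 249 and 290.2 in iWAT. Liver was below all fat libraries and iWAT above all others, while eWAT was split between a low and a high pair. Liver was lower than iWAT by a log2 change of -4.23 (SE 0.33, adjusted p = 1.00e-08), a 20.1-fold gap between the means, and lower than BAT by -2.40 (SE 0.33, adjusted p = 9.18e-06). BAT was lower than iWAT by -1.83 (SE 0.33, adjusted p = 0.000265) but not separated from eWAT (-0.30, SE 0.33).

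The mitochondrial pair, Prdx3 and Sod2, stood highest in brown fat, a tissue dense in mitochondria. Prdx3 had 109.7, 130.2, 111 and 114 FPKM in vehicle liver, 277, 274, 261 and 237 in BAT, 57.1, 61.5, 62.7 and 66.2 in eWAT, and 101, 101, 97.1 and 100.2 in iWAT. The BAT libraries lay above all others by a wide margin, and liver and iWAT were near each other. For BAT, the log2 change was 2.07 (SE 0.09) against eWAT and 1.38 (SE 0.09) against iWAT, with adjusted p = 8.18e-11 and 8.43e-09, and liver was lower than BAT by -1.17 (SE 0.09, adjusted p = 1.08e-08). Sod2, the manganese enzyme, averaged 29.2 ± 0.947 FPKM in liver, 78.9 ± 9.19 in BAT, 16.7 ± 2.32 in eWAT and 26.5 ± 3.93 in iWAT (SD, n = 4 each). Its log2 change was -1.40 (SE 0.13) for liver against BAT, 2.18 (SE 0.13) for BAT against eWAT and 1.54 (SE 0.13) for BAT against iWAT, all with adjusted p of at most 1.01e-07. Sod2 in liver and iWAT did not differ beyond the spread on the deposited scale (0.14, 95% interval -0.13 to 0.41). For Prdx3 the same pair passed narrowly (0.22, SE 0.09, adjusted p = 0.0452), but the change was -0.55 on the TPM scale and -0.32 after quantile normalisation.

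Prdx4, the peroxiredoxin of the secretory pathway, was the least abundant peroxiredoxin in every tissue and had the widest span of them between tissues. It had 45.7, 39.4, 37.6 and 50.6 FPKM in liver, 4.98, 5.94, 4.72 and 5.13 in BAT, 21.8, 17.5, 12.4 and 11.9 in eWAT, and 20.6, 20.04, 15.9 and 16.2 in iWAT. Every liver library was above, and every BAT library below, all libraries of the white depots. Liver exceeded BAT by a log2 change of 2.83 (SE 0.17, adjusted p = 3.15e-10) and iWAT by 1.21 (SE 0.17, adjusted p = 8.51e-06), and BAT was below iWAT (-1.63, SE 0.17, adjusted p = 1.11e-06). The white depots were not separated (eWAT against iWAT -0.22, 95% interval -0.57 to 0.14). P4hb, a disulfide isomerase of the same compartment, averaged 808 ± 40.3 FPKM in vehicle liver, 44.2 ± 2.64 in BAT, 162 ± 28.2 in eWAT and 159 ± 6.47 in iWAT.

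Among the cytosolic members, Prdx1 averaged 423 ± 20.5 FPKM in liver, 143 ± 22.3 in BAT, 272 ± 188 in eWAT and 178 ± 26.0 in iWAT (SD, n = 4 each). Liver exceeded BAT by 1.57 (SE 0.33, adjusted p = 0.000665). Against iWAT the change was 1.25 (SE 0.33, adjusted p = 0.00350), which no longer passed on the TPM scale (0.49, adjusted p = 0.206). Against eWAT it was 0.89 (SE 0.33, adjusted p = 0.0265) but -0.32 on the TPM scale. Prdx6, which also has a phospholipase activity, averaged 158.5 ± 11.7 FPKM in liver, 60.2 ± 8.52 in BAT, 55.6 ± 10.3 in eWAT and 123 ± 17.3 in iWAT. Liver exceeded BAT by 1.39 (SE 0.14, adjusted p = 4.02e-07), and eWAT was below iWAT by -1.13 (SE 0.14, adjusted p = 2.43e-05), while BAT and eWAT were not separated (0.12, 95% interval -0.19 to 0.43).

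Prdx2 and Prdx5 varied least over the tissues. Prdx2 averaged 59.3 ± 2.89 FPKM in liver, 64.6 ± 8.76 in BAT, 39.3 ± 4.54 in eWAT and 63.9 ± 5.27 in iWAT. Only eWAT stood apart on this deposited scale, where the highest mean of Prdx2 was 1.65 times its lowest. On the TPM scale its log2 change was -0.60 for liver against eWAT and -0.10 for BAT against eWAT. The eWAT level was lower than that of iWAT (-0.69, SE 0.11, adjusted p = 0.000199) on the deposited scale. There, liver against iWAT (-0.10, 95% interval -0.35 to 0.14) and BAT against iWAT (0.01, 95% interval -0.23 to 0.25) were not separated. The TPM scale moved the median of all genes to -0.62 and -0.32 in these 2 pairs. In Prdx5 the means were 154 ± 18.7 FPKM in liver, 173 ± 32.4 in BAT, 96.7 ± 34.5 in eWAT and 243 ± 36.0 in iWAT, and eWAT was again below iWAT (-1.38, SE 0.22, adjusted p = 0.000151). Among auranofin libraries the change between eWAT and iWAT was 0.11 for Prdx2 and -0.06 for Prdx5, with neither past the threshold.

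Counted over the 6 pairs of tissues, 46 of the 60 comparisons of the 10 genes passed an adjusted p of 0.05 in limma, which is a background at which most genes passed too. Liver against eWAT called 10 members (9 higher, 1 lower) and 71.9% of the 14339 genes tested, liver against iWAT 8 members (6 higher, 2 lower) and 69.5% of genes, and liver against BAT 8 (5 higher, 3 lower) and 63.1% of genes. BAT against eWAT called 7 (6 higher, 1 lower) and 53% of genes, BAT against iWAT 5 (2 higher, 3 lower) and 50.1% of genes, and eWAT against iWAT 8 and 46.2% of genes. In the last pair all 8 members called were lower in eWAT, against 24.8% of all genes, and the median log2 change was -0.70 over the 10 members and -0.02 over all genes tested. Among the 4 auranofin libraries of each depot, none of the 10 passed between eWAT and iWAT, while 1537 genes did. Leaving out the vehicle eWAT libraries 1 and 2, which stand apart from the other eWAT libraries in their marker genes, all 10 members passed in that pair, as did 42.3% of the 14248 genes then tested. Prdx1, higher on average in eWAT with all vehicle libraries (272 against 178 FPKM), then passed as lower. It had 119 and 145 FPKM in the eWAT libraries kept, against 148 to 204 FPKM in vehicle iWAT. Several of these directions turn with the scaling of the libraries. Under both the TPM scale and quantile normalisation, Prdx1, Prdx2, Prdx3 and Prdx5 turn lower in liver than in eWAT, Prdx3 and Prdx6 lower in liver than in iWAT, and Cat lower in BAT than in eWAT. On the TPM scale alone, Sod2 turns lower in liver than in eWAT and Prdx2 lower in BAT than in eWAT. The TPM scale moved the median change of all genes to -0.98 in liver against eWAT, and to between -0.69 and 0.32 in the other pairs. Pairs given above as not separated, or as not differing beyond the spread, were so on the deposited scale. In BAT against iWAT, 8 members passed on the TPM scale, against 5 as deposited. Of the 46 differences, 23 kept their direction and their call under every alternative tried. They include all 3 comparisons of liver with a fat depot for each of Cat, Sod1 and Sod3, and all 3 comparisons of BAT with another tissue for each of Prdx3, Sod2 and Prdx4.

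The place of a gene among the others rests on the gene length in the table, which is the summed length of all annotated exons. For Sod1 that length is 3970 bases, 6.19 times the 641 bases of its principal transcript, since a further transcript retains an intron. The ratio was between 1 and 2.13 for the other 9 genes. On the principal length, Sod1 stood at 2086 FPKM in vehicle liver and 715 in BAT, and took rank 1 of the 10 in liver, BAT and iWAT, where its deposited values gave it ranks 3, 5 and 6. Comparisons of a gene with itself between tissues or treatments keep the same length and are not touched.

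**Figure D2:**
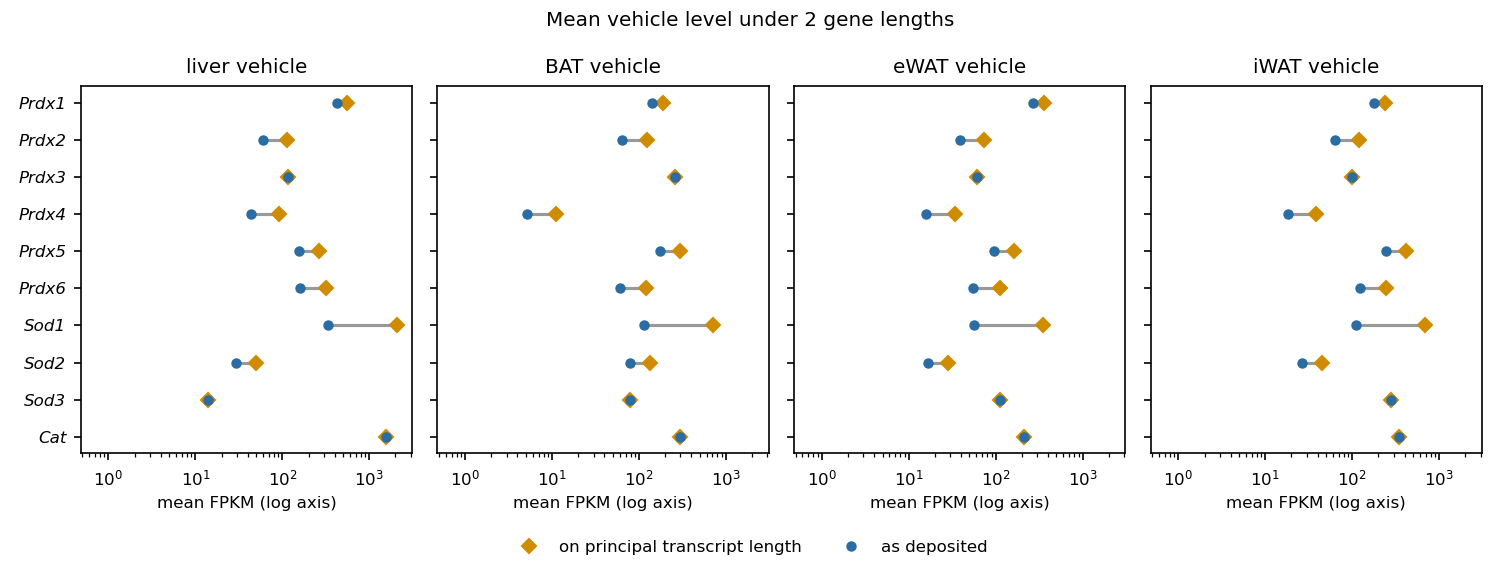
Mean FPKM (log axis) of each gene over the 4 vehicle libraries of liver, BAT, eWAT and iWAT, rescaled to the length of the principal transcript (diamonds) and as deposited (circles). Sod1 stands at 2086 FPKM in liver on the principal length, against 337 as deposited, whereas Prdx3, Sod3 and Cat do not move because both lengths are the same.

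On the mouse build mm10, only Prdx3 and Prdx5 share a chromosome, chromosome 19, where they lie at chr19:60864051-60874556 and chr19:6906697-6910106, both on the minus strand. The span of Prdx2, introns included, overlaps on the opposite strand those of Junb (351 bases) and Rnaseh2a (181 bases). Likewise Prdx5 overlaps Trmt112 (409 bases) and Sod1 overlaps Scaf4 (650 bases). How many of these bases are exon in both genes was not computed. The libraries keep no strand, so reads in any exon bases shared there cannot be assigned by strand. The neighbours stood at no more than 29.1 FPKM (Junb), 8.14 (Rnaseh2a), 38.9 (Trmt112) and 9.78 (Scaf4) in any library. The near copy Prdx6b reached at most 0.0303 FPKM, and the pseudogenes Prdx6-ps2 and Prdx2-rs3 were listed at 0.

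Promoter sequences of 300 bases around the start site, from RefSeq on GRCm38.p6, matched 8 of the 10 genes, all but Prdx6 and Sod3. The promoters of 3 genes are printed here, 5′ to 3′ on the strand of the gene. Prdx1 and Sod1 are shown because they share a motif of the antioxidant response and differed in eWAT vehicle libraries 1 and 2, where Prdx1 was high and Sod1 low, and Cat because it has the highest level of the 10 in liver on the deposited gene length. In the first and the second the capitals mark a match to TGACNNNGC, the core of the antioxidant response element, here read on the opposite strand. In the third they mark CCAAT boxes, written CCAAT or, on the opposite strand, ATTGG.
Prdx1 promoter, chr4:116685349-116685648, plus strand: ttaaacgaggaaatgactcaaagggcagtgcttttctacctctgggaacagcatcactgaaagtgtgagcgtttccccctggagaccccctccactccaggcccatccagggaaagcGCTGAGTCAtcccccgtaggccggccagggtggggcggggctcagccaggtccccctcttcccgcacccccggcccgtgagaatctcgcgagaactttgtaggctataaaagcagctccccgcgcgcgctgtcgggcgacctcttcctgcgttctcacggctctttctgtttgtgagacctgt
Sod1 promoter, chr16:90220512-90220811, plus strand: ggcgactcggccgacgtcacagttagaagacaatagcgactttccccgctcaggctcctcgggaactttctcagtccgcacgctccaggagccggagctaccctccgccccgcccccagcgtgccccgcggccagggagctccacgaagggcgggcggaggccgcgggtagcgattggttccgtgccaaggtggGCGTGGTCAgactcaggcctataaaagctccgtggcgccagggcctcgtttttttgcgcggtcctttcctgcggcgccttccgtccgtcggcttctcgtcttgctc
Cat promoter, chr2:103485104-103485403, minus strand: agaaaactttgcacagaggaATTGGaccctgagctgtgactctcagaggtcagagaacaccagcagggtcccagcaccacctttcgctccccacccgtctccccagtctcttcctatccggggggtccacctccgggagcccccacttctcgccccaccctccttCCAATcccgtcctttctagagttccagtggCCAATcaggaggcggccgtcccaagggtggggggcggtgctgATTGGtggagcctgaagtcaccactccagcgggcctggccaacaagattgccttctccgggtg

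The core TGACNNNGC occurred in 2 of the 8 promoters, starting 133 bases before the start site in Prdx1 and 56 bases before it in Sod1, against 12.5% of the 27025 mouse promoters searched on both strands. GGGCGG, the GC box, was in 8 of 8, against 35.9% of all promoters. CCAAT was in 4 of 8, against 37.9%, and Cat held 4 of these boxes, starting 230, 85, 55 and 13 bases before the start site. TATAAA was in 3 of 8 (Prdx1, Prdx3 and Sod1), against 14.2%. No matches of different motifs overlapped in the 3 promoters printed, though GC boxes of Sod1 overlapped each other. A match describes letters in this window and not a site in use, and the lack of one says nothing about a factor.

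With auranofin, no member passed an adjusted p of 0.05 in any tissue. Over all genes, limma called 0 of 13122 in liver (0%), 3 of 13067 in BAT (0.023%), 0 of 13847 in eWAT (0%) and 0 of 13164 in iWAT (0%). At an unadjusted p under 0.05, the members numbered 1 in liver, 0 in BAT, 1 in eWAT and 4 in iWAT, against 6.04%, 11.2%, 11.4% and 22% of genes. No member had auranofin and vehicle libraries that did not overlap in any tissue, against 3.72% of genes in liver, 5.33% in BAT, 6.95% in eWAT and 5.18% in iWAT.

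**Figure D3:**
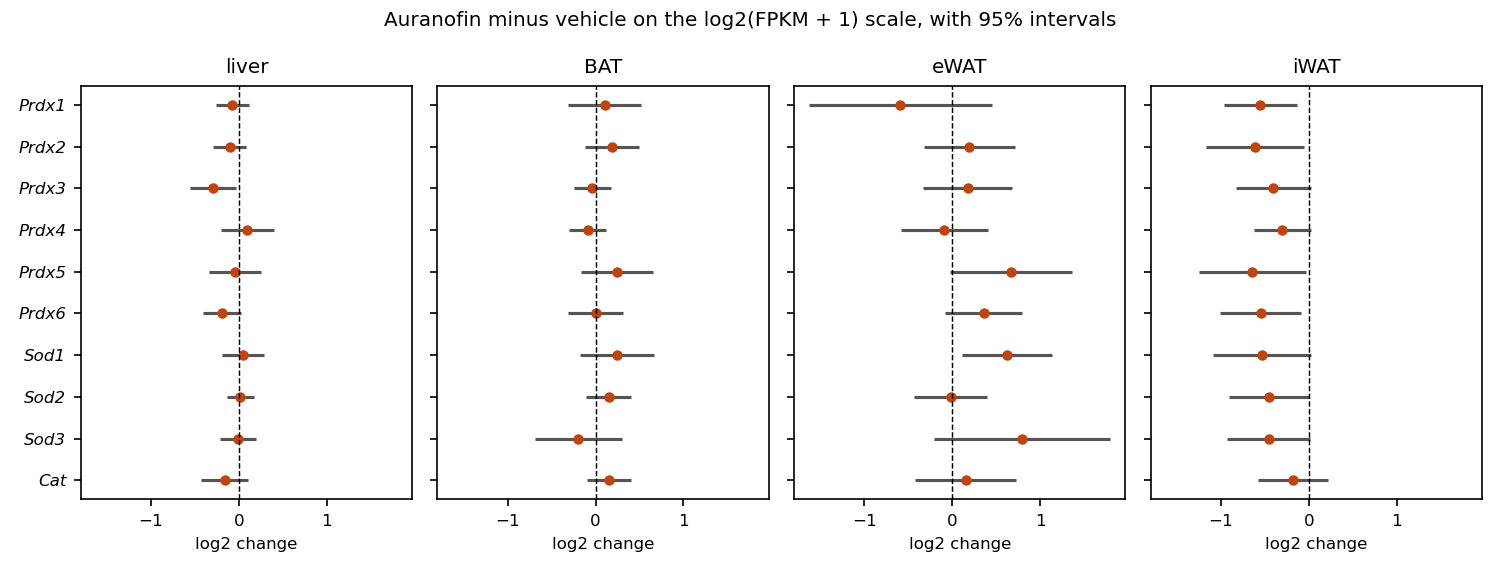
Log2 change of each gene, as the difference of auranofin from vehicle in log2(FPKM + 1), in liver, BAT, eWAT and iWAT, with 95% intervals from limma (n = 4 libraries per group). Every point lies below 0 in iWAT, where Cat and Sod3 turn above 0 after quantile normalisation and Cat also on the TPM scale.

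In inguinal fat, all 10 members were lower on average in the auranofin libraries as deposited, against 52.2% of all genes with a change below 0. Their log2 changes ran from -0.64 (Prdx5) to -0.18 (Cat) with a median of -0.50, where all genes had a median of -0.02, and none passed (adjusted p between 0.204 and 0.535). Quantile normalisation turned Cat to 0.31 and Sod3 to 0.05, and the TPM scale, which moved the median of all genes to 0.23, turned Cat to 0.11. The 4 members with an unadjusted p under 0.05 were Prdx1, Prdx2, Prdx5 and Prdx6, with log2 changes of -0.55, -0.61, -0.64 and -0.55. On the TPM scale, the change of Prdx1 was -0.27.

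Single libraries differed widely within the auranofin group of iWAT. Prdx1 had 109, 164, 103 and 114 FPKM in auranofin libraries 1 to 4, against 204, 195, 165 and 148 FPKM in vehicle libraries 1 to 4. Prdx5, the peroxiredoxin found in several compartments, had 154, 268, 112 and 120.2 FPKM with auranofin, against 295, 229, 212 and 234 FPKM with vehicle. Prdx3 of the mitochondria had 69.6, 112, 59.1 and 68.7 FPKM with auranofin, against 101, 101, 97.1 and 100.2 FPKM with vehicle. In each of these genes, auranofin library 2 lay within or above the vehicle range and the other 3 auranofin libraries lay below it.

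The same library stood out in the remaining members. Sod1 had 76.1, 127, 58.4 and 57.7 FPKM with auranofin, against 130.3, 95.6, 111 and 106 FPKM with vehicle, and its log2 change was -0.53 (SE 0.25, 95% interval -1.09 to 0.03). Sod3 of the extracellular space had 197, 304, 186 and 153 FPKM with auranofin, against 293, 286, 249 and 290.2 FPKM with vehicle. Cat had 278, 412, 257 and 291 FPKM with auranofin, against 314, 343, 349 and 374 FPKM with vehicle. On the deposited scale, library 2 held the highest auranofin value in every one of the 10 genes. Auranofin libraries 1, 3 and 4 lay below all 4 vehicle libraries in every one of them on that scale. The sizes behind these FPKM split alike, at 22889469, 23518961 and 22327421 in those libraries, 18848468 in library 2 and 17251599 to 20272361 with vehicle. Reads on genes did not, at 17302126 to 17672424 in those libraries and 16015264 to 18436456 in the other iWAT libraries. The part of these sizes in the gap was not tested.

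Without auranofin library 2, all 10 members passed as lower, while 21.3% of the 13248 genes tested did so and 36.4% passed in either direction. The log2 changes were then between -0.91 (Prdx5, SE 0.15, adjusted p = 0.00343) and -0.32 (Cat, SE 0.10, adjusted p = 0.0310), with -0.88 for Prdx2 (SE 0.12, adjusted p = 0.00176) and -0.78 for Sod1 (SE 0.14, adjusted p = 0.00442). Leaving out any of the other 7 libraries called no member. Weights that let each library count by its own scatter called all 10, beside 6095 genes in all. They count a library less where it departs from its group in these same values, so they are no separate check. The fit without library 2 is none either, since it leaves out the highest auranofin value of every member. That library was also apart in marker genes. The 9 adipocyte markers summed to 8871, 14290, 7738 and 8072 FPKM in auranofin libraries 1 to 4, against 11960 to 12770 FPKM in vehicle libraries, with no marker at 0. The 8 endothelial markers summed to 224, 111, 268 and 209 FPKM in auranofin libraries 1 to 4, against 115 to 153 FPKM in vehicle libraries, again with none at 0. Library 2 had the highest adipocyte sum and the lowest endothelial sum of the 8, and the part of these lists in the result was not tested. Other marker lists moved too. The 7 red cell markers found summed to 318.5, 425, 676 and 314 FPKM with auranofin, against 613 to 945 FPKM with vehicle, and all 5 of those tested were below 0 (median log2 change -0.63). The 6 brown adipocyte markers summed to 63.4, 164, 37.6 and 29.6 FPKM with auranofin, against 127 to 199 FPKM with vehicle, and all 4 tested were below 0 (median -1.05). No marker of either list was at 0, no marker passed, and their part in the member values was not tested. The 10 skeletal muscle markers summed to 888 FPKM in auranofin library 4 and 1573 FPKM in vehicle library 4, and to no more than 34.7 FPKM in the other iWAT libraries; without the libraries numbered 4, no member passed.

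**Figure D4:**
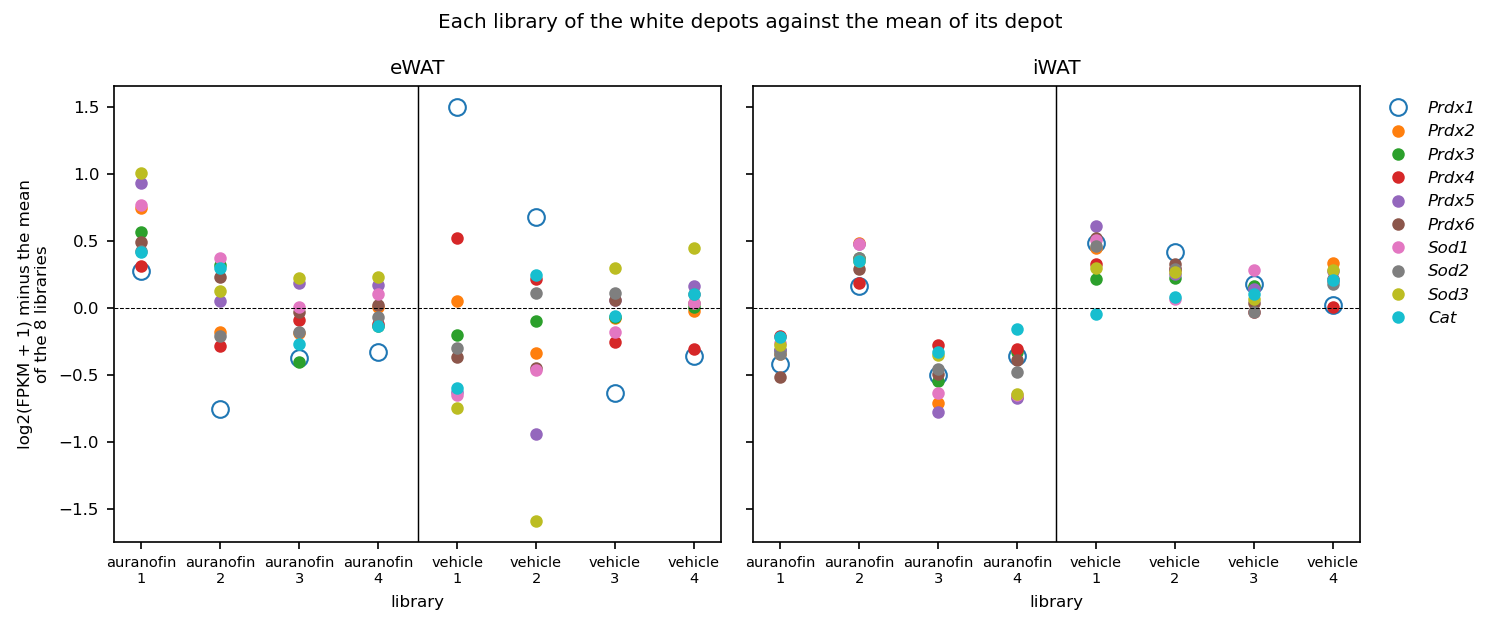
Log2(FPKM + 1) of each gene in every library of eWAT and iWAT, minus the mean over the 8 libraries of that depot; open circles are Prdx1. In iWAT, auranofin library 2 sits with the vehicle libraries for all 10 genes, and in eWAT, vehicle libraries 1 and 2 hold high Prdx1 and low Sod3.

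In epididymal fat the vehicle libraries were themselves split, with Prdx1 and Prdx4 high and Sod1, Sod3, Prdx5 and Prdx6 low in vehicle libraries 1 and 2. Prdx1 had 225, 109.6, 144 and 148 FPKM with auranofin, against 528, 297, 119 and 145 FPKM with vehicle. Vehicle libraries 1 and 2 were above all other eWAT libraries, and vehicle libraries 3 and 4 lay within the auranofin range. The log2 change of -0.59 (SE 0.46, 95% interval -1.63 to 0.45, adjusted p = 0.526) turned to 0.20 without vehicle libraries 1 and 2.

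Prdx4 had 18.7, 12.1, 13.97 and 13.6 FPKM with auranofin, against 21.8, 17.5, 12.4 and 11.9 FPKM with vehicle, and its log2 change of -0.09 turned to 0.23 without those 2 libraries. Sod3 was low in the same 2 libraries. It had 256, 139, 149 and 149 FPKM with auranofin, against 75.1, 41.5, 156 and 173 FPKM with vehicle, so that vehicle libraries 1 and 2 were the lowest of the 8. Prdx5 had 223, 121, 132 and 131 FPKM with auranofin, against 74.8, 60.0, 121 and 130.5 FPKM with vehicle, again with vehicle 1 and 2 at the bottom. Sod1 had 119.5, 90.9, 70.3 and 75.4 FPKM with auranofin, against 44.2, 50.4, 61.8 and 71.8 FPKM with vehicle.

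Sod1 was the eWAT member with an unadjusted p under 0.05 (log2 change 0.63, SE 0.23, 95% interval 0.11 to 1.14, adjusted p = 0.429 in limma), and its groups overlapped only between 70.3 and 71.8 FPKM. Without vehicle libraries 1 and 2 its log2 change was 0.38. The changes of Sod3 (0.80, SE 0.44) and Prdx5 (0.67, SE 0.31) did not pass either, with adjusted p = 0.436 and 0.429. Over the 10 members, 7 were above 0 and 3 below (Prdx1, Prdx4 and Sod2), with a median of 0.19 against 0.0029 for all genes; on the TPM scale, which moved the median of all genes to -0.14, Cat turned just below 0.

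Marker genes moved with this split. The 9 macrophage markers summed to 1713, 634, 1353 and 1767 FPKM in the auranofin libraries of eWAT, against 3562, 3288, 1401 and 1496 FPKM in the vehicle libraries, and the 9 adipocyte markers to 10320, 8014, 5702 and 6235 FPKM with auranofin, against 3061, 4848, 6161 and 6787 FPKM with vehicle. No marker of either list was at 0. Vehicle libraries 1 and 2 thus had the highest macrophage sums and the lowest adipocyte sums of the depot, together with the highest Prdx1 and the lowest Prdx5, Prdx6, Sod1 and Sod3. Their part in the member values was not tested.

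In liver no member passed either. Prdx3 had 89.9, 103, 110.5 and 78.1 FPKM with auranofin, against 109.7, 130.2, 111 and 114 FPKM with vehicle, and the groups overlapped only through auranofin library 3 and vehicle library 1. Its log2 change of -0.29 (SE 0.12, 95% interval -0.55 to -0.03) had an adjusted p of 0.790 in limma. Prdx6 averaged 139 ± 15.8 FPKM with auranofin and 158.5 ± 11.7 FPKM with vehicle (SD, n = 4 each; log2 change -0.19, adjusted p = 0.790). Cat had 1441, 1565.5, 1530.3 and 1133 FPKM with auranofin, against 1661, 1580.2, 1467 and 1588 FPKM with vehicle, where auranofin library 4 was lowest, and its log2 change was -0.16 (95% interval -0.43 to 0.10). The other 7 members had log2 changes between -0.10 and 0.10. For Sod2 and Sod3 the 95% intervals were -0.14 to 0.17 and -0.22 to 0.19, which bounds any difference in these libraries to a small size without showing that there is none.

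In brown fat all 10 groups overlapped and no member reached an unadjusted p under 0.05. Prdx3, its leading peroxiredoxin on the deposited gene length, had 263, 254.5, 248 and 255 FPKM with auranofin, against 277, 274, 261 and 237 FPKM with vehicle (log2 change -0.04, 95% interval -0.25 to 0.17). Sod2 had 95.6, 77.7, 90.4 and 85.8 FPKM with auranofin, against 83.7, 81.7, 84.9 and 65.3 FPKM with vehicle (0.15, 95% interval -0.11 to 0.41), the lowest value being vehicle library 4. Changes of the 10 members lay between -0.20 (Sod3) and 0.25 (Sod1), with a median of 0.13 against 0.02 for all genes. The quantile and TPM scales turned Prdx1 and Prdx6 slightly below 0. Vehicle library 4 also had the lowest sum of the 6 brown adipocyte markers, 6083 FPKM, where the auranofin libraries had 8467 to 14250 FPKM and the other vehicle libraries 9426 to 10560 FPKM. The skeletal muscle markers spanned 2.84 to 2867 FPKM with auranofin and 3.14 to 697 FPKM with vehicle in BAT, and the part of either list in the member values was not tested.

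Interaction terms asked whether 2 tissues differed in their change with auranofin. No member passed in any of the 4 tests, in which 0 of 13670 genes (eWAT minus iWAT, 0%), 0 of 13842 (eWAT minus BAT, 0%), 3 of 13372 (iWAT minus BAT, 0.0224%) and 0 of 14413 (liver minus the mean of the fat depots, 0%) were called. For eWAT minus iWAT, 9 of 10 members were above 0, with a median of 0.69 against -0.0076 for all genes. An unadjusted p under 0.05 was found for 5 members, against 23.5% of genes. Of these 5, Prdx5 had the largest difference, 1.32 (SE 0.43, 95% interval 0.41 to 2.22), and Sod1 the smallest p, with 1.16 (SE 0.35, 95% interval 0.42 to 1.90), both at an adjusted p of 0.177 in limma. The TPM scale moved the median of all genes to -0.40 in that test and to 0.37 for iWAT minus BAT; the members with an unadjusted p under 0.05 kept their signs on it. For iWAT minus BAT, 10 of 10 were below 0, with a median of -0.57 against -0.0076 for all genes. An unadjusted p under 0.05 was found for 6 members, against 23.1% of genes. Prdx1, which is among them, stood at -0.24 on the TPM scale (adjusted p = 0.344 in limma). These interactions share the iWAT libraries with each other and with the iWAT comparison. Without iWAT auranofin library 2, 4 members passed in the first and 8 in the second, while 14.8% of 13720 and 27.4% of 13392 genes did. Both fits leave out the highest iWAT auranofin value of every member, so they are no separate check.

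The genes that serve these enzymes were read next to them. Txnrd1, the cytosolic thioredoxin reductase and a known target of the drug, averaged 27.4 ± 3.74 FPKM with auranofin and 30.2 ± 3.08 with vehicle in liver, 13.4 ± 0.857 and 14.8 ± 1.38 in BAT, 10.4 ± 0.714 and 12.7 ± 2.33 in eWAT, and 9.66 ± 0.750 and 9.27 ± 0.420 in iWAT (SD, n = 4 each). None of these passed (adjusted p between 0.447 and 0.850). Txn1, thioredoxin itself, averaged 265 ± 25.4 FPKM with auranofin and 283 ± 13.2 with vehicle in liver, and 85.0 ± 35.8 with auranofin and 112 ± 16.3 with vehicle in iWAT (log2 change -0.46, adjusted p = 0.295). Srxn1, sulfiredoxin, which repairs overoxidised peroxiredoxins, had a lower mean with auranofin in each tissue on the deposited scale, with log2 changes of -0.34 in liver, -0.35 in BAT, -0.49 in eWAT and -0.11 in iWAT, none of which passed (adjusted p between 0.440 and 0.790). In BAT it averaged 32.4 ± 4.03 FPKM with auranofin and 42.4 ± 11.0 with vehicle. Ccs averaged 24.3 ± 3.48 FPKM with auranofin and 16.9 ± 8.41 with vehicle in eWAT (0.66, adjusted p = 0.440), and 19.8 ± 7.98 with auranofin and 26.5 ± 4.32 with vehicle in iWAT (-0.47, adjusted p = 0.288), the same signs as Sod1 in both depots.

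None of the 7 lists of neighbouring genes (thioredoxin and glutathione supply, copper delivery, oxidant-making enzymes, peroxisome biogenesis, oxidative folding, other peroxidases, and regulators) had a member that passed with auranofin in any tissue. The 18 peroxisome genes, the company of Cat, had 3 above 0 and 15 below in liver (median -0.14), 18 above and 0 below in BAT (0.19), 14 above and 4 below in eWAT (0.30), and 2 above and 16 below in iWAT (-0.24), where all genes had medians between -0.02 and 0.02. These counts rest on the deposited scale. The TPM scale moved the median of all genes to -0.018 in liver, -0.097 in BAT, -0.14 in eWAT and 0.23 in iWAT, and the list was not counted on it. Gpx4, the selenium enzyme that reduces lipid peroxides, averaged 456 ± 194 FPKM with auranofin and 226 ± 84.4 with vehicle in eWAT, and 442 ± 220 with auranofin and 736 ± 112 with vehicle in iWAT. Its log2 changes of 1.03 (SE 0.39, adjusted p = 0.429) and -0.84 (SE 0.30, adjusted p = 0.204) carried the same signs as Prdx5 and Sod1 in these depots. Among vehicle tissues, 17 of the 18 peroxisome genes were called higher and 0 lower in liver against eWAT, where 37.4% of all genes were called higher, and 0 higher and 15 lower in eWAT against iWAT, where 24.8% of all genes were called lower, on the deposited scale.

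With each library set against the mean of its tissue, the 28 pairs of members with neither Prdx1 nor Prdx4 had a median Pearson r of 0.73 over the 32 libraries, ranging from 0.29 to 0.91. Prdx1 paired with these 8 members had a median of 0.01 (-0.36 to 0.41) and Prdx4 a median of 0.25 (-0.003 to 0.51), while Prdx1 and Prdx4 stood at 0.72 with each other. Prdx5 and Sod1 had the highest, at 0.91. Libraries share depth and cell make-up, so these values describe the set only.

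Across the 6521 protein-coding genes with a mean of 5 FPKM or more, those whose levels most resembled a member's were sought by Pearson r over the 32 libraries, with r after centring on each tissue in second place. Cat was close to Scp2 (0.99 and 0.79), a sterol carrier protein found in peroxisomes. Prdx3 was most like Ghitm (0.99 and 0.88) and Ndufa9 (0.99 and 0.89), and Sod2 most like Ndufa9 (0.99 and 0.85) and Ndufv2 (0.99 and 0.85). Ndufa9 and Ndufv2 encode parts of respiratory complex I. Prdx4 was most like Trf (0.98 and 0.61), the plasma iron carrier transferrin, and P4hb (0.98 and 0.55). Sod1 came nearest to Alad (0.98 and 0.91) and Hagh (0.98 and 0.92), and Sod3 to Syp (0.99 and 0.90) and Tmem109 (0.99 and 0.89). The remaining pairs were Esd (0.95 and 0.92) and Nars (0.91 and 0.76) for Prdx1, Mettl23 (0.96 and 0.92) and Timm8b (0.95 and 0.92) for Prdx2, Rex1bd (0.96 and 0.96) and Mrps26 (0.94 and 0.92) for Prdx5, and Gfer (0.95 and 0.82) and Zfyve21 (0.95 and 0.83) for Prdx6.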

How the data were processed

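Sequencing libraries came from total RNA and do not keep the strand, per the labels' protocols. The deposited values are FPKM per gene and library, made by the authors, with a size per library that is not its reads on genes; featureCounts 1.5.0-p3, STAR 2.6.1d, DESeq2 1.20.0, CASAVA and mm10 are listed, without their roles, per the submitters' processing notes. Multiplied by gene length, 100.0% of values were whole reads within 0.1, and counts were rebuilt from them. The members were taken by symbol; coordinates and exon lengths of all 10 equal those of GENCODE release M21. Members, gene lists and alternatives were chosen with earlier results of these data known.

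Genes with a mean of 0.5 FPKM or more were tested after a log2(FPKM + 1) transform by limma 3.58.1 (R 4.3.3, trend by mean level), each tissue alone (8 libraries), the pairs of tissues from 1 fit of the 16 vehicle libraries, and interactions over the libraries of the tissues involved. P-values were adjusted over all genes tested (Benjamini-Hochberg), with 0.05 as threshold; the fits were tested on simulated data. The rule for named genes gives the 10 members, Txnrd1, Txn1, Srxn1 and Ccs, 3 tissue markers, up to 4 genes per list by p, and the 2 most like each member, of which 1 is not reported here; P4hb tissue levels were added after their values were seen. Same-numbered libraries were not paired. Alternatives were a pseudocount of 0.1, other filters, quantile normalisation, the TPM scale, voom on rebuilt reads, sample quality weights, a replicate block (statmod 1.5.0), 1 fit of all libraries, auranofin in place of vehicle libraries, and leaving libraries out. Leaving out eWAT vehicle libraries 1 and 2 in the pairs of tissues, the principal transcript length and the sums on the TPM scale were added after the data were seen. Counting error, taken from the square root of the reads, reached 9.32% of the level for the lowest member (Prdx4 in BAT); in 6 of the 80 groups of libraries it exceeded 50% of the spread. Python 3.11.15 and matplotlib 3.10.9 drew the figures.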

Additional observations from a re-analysis of the deposited data

Results flagged for a closer look

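In 13 of the 80 groups of 4 libraries, 1 library lay apart from the other 3 by Dixon's criterion (a gap to the nearest library that takes up most of the range), which chance gives in about 1 of 20 groups. The groups are not independent, since the members share libraries. The flags rest on the deposited FPKM. The size behind it was 18848468 in iWAT auranofin library 2, against 22327421 to 23518961 in the other auranofin libraries of iWAT. In eWAT auranofin library 1 it was 18367959, against 19977746 to 22709416 in the others of its group. For liver auranofin library 3 it was 10559760, against 11401347 to 12612706. Flags on another scale were not computed.

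In iWAT, auranofin library 2 was apart and high for Prdx4 (18.5 FPKM), Prdx6 (123 FPKM) and Sod2 (29.3 FPKM), and vehicle library 3 was apart and low for Sod3 (249 FPKM). In eWAT, auranofin library 1 was high for Prdx2 (70.9 FPKM), Prdx5 (223 FPKM) and Sod3 (256 FPKM), and vehicle library 1 was low for Sod2 (13.2 FPKM).

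Liver auranofin library 3 was high for Prdx2 (63.1 FPKM), Prdx5 (187 FPKM) and Sod2 (32.2 FPKM), and auranofin library 2 was high for Sod3 (16.4 FPKM). In BAT, vehicle library 4 was low for Sod2 (65.3 FPKM). iWAT auranofin library 2 and eWAT auranofin library 1 also had the highest adipocyte marker sums of their depots, 14290 and 10320 FPKM.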

How the results depend on the processing

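Of the 10 members' changes with auranofin, none was called in liver, BAT or eWAT under any alternative. In iWAT, leaving out each library called between 0 and 10 members and between 0 and 4819 genes, and sample quality weights 10 and 6095; 1 fit of all libraries called 371 genes. In eWAT, sample quality weights called 6 genes, 1 fit of all libraries 1008, and leaving out each library 0 to 1. Liver had 1 gene without a filter, 1 with a replicate block, 1 with sample quality weights, 3 in 1 fit of all libraries, and 0 to 1 without each library. BAT had 5 at a mean of 2 FPKM or more, 1 on the TPM scale, 6 with sample quality weights, 87 in 1 fit of all libraries, and 0 to 208 without each library.
Interactions called, without each library, 0 to 2036 genes and 0 to 4 members (eWAT minus iWAT), 0 to 2 genes (eWAT minus BAT), 0 to 3664 genes and 0 to 8 members (iWAT minus BAT) and 0 to 10 genes (liver minus fat). Without a filter, eWAT minus BAT called 1 gene and liver minus fat 46; iWAT minus BAT called 11 at a mean of 2 FPKM or more, 15 after quantile normalisation and 6 on the TPM scale.
Between tissues, members called were 6 under quantile normalisation and 6 on the TPM scale in liver against eWAT, 8 on the TPM scale in BAT against iWAT, and 5 on it in eWAT against iWAT, where the auranofin libraries called 0 members and 1537 genes.
Directions turned as follows; the cause was not tested. With auranofin, quantile normalisation turned Sod3 (0.048) and Cat (0.31) in iWAT, Prdx1 (-0.023) and Prdx6 (-0.097) in BAT, and Prdx5 (0.017) and Sod3 (0.012) in liver; the TPM scale turned Cat in iWAT (0.11) and eWAT (-0.0085), and Prdx1 (-0.034) and Prdx6 (-0.14) in BAT. Sample quality weights turned Prdx1 (0.058), Prdx3 (-0.065), Prdx4 (0.12), Sod3 (-0.024) and Cat (-0.077) in eWAT, Sod1 (-0.012), Sod2 (-0.0069) and Sod3 (0.0042) in liver, and Prdx6 (-0.091) in BAT. Without eWAT vehicle 1 and 2, Prdx1 (0.20) and Prdx4 (0.23) turned. Leaving out each library spanned 0 for Prdx2 (-0.022 to 0.29), Sod2 (-0.16 to 0.052), Prdx4 (-0.21 to 0.068) and Cat (-0.019 to 0.27) in eWAT, Prdx5 (-0.16 to 0.0020), Sod3 (-0.093 to 0.021), Sod1 (-0.017 to 0.12) and Sod2 (-0.025 to 0.035) in liver, and Prdx1 (-0.0089 to 0.22) and Prdx6 (-0.082 to 0.083) in BAT.
Between tissues, quantile normalisation turned Prdx3 (-0.32) and Prdx6 (-0.18) in liver against iWAT, Prdx1 (-0.27), Prdx2 (-0.19), Prdx3 (-0.068) and Prdx5 (-0.30) in liver against eWAT, and Cat (-0.14) in BAT against eWAT. The TPM scale turned Prdx3 (-0.55) and Prdx6 (-0.39) in liver against iWAT, Prdx1 (-0.32), Prdx2 (-0.60), Prdx3 (-0.30), Prdx5 (-0.46) and Sod2 (-0.38) in liver against eWAT, and Prdx2 (-0.10) and Cat (-0.33) in BAT against eWAT. In the auranofin libraries, Prdx2 (0.11) and Sod1 (0.20) turned in eWAT against iWAT. These tissue entries cover only differences called in the main fit. Prdx1 in eWAT against iWAT, not called there, turned to lower without eWAT vehicle libraries 1 and 2.
The replicate block changed no member call. In no pair of groups were all same-numbered libraries correlated above 0.1, so the numbers were not treated as pairs. With 4 libraries a group and an interval of -1.63 to 0.45 for Prdx1 in eWAT, modest changes were not detectable there.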
